A study of Mus musculus with 12 samples.

Results

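The 10 genes described here encode the subunits of the transcription factor NF-kappaB (Nfkb1, Nfkb2, Rel, Rela and Relb) and proteins that hold it back or modify it (Nfkbia, Nfkbie, Nfkbiz, Tnfaip3 and Bcl3). They were chosen by symbol, and a probe set was used only where the platform annotation gave exactly 1 of these symbols. That yielded 18 probe sets for 9 of the 10 genes, out of 18193 genes with such a probe set, and Nfkb1 was not analysed here. For each gene the probe set with the highest mean over 12 arrays was used, and the others served as a check. All 9 genes passed the filter on signal that left 10929 genes to be tested, and all 18 of their probe sets passed it.

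The RNA came from dendritic cells (DC) sorted from the lungs of male C57BL/6J mice aged 8 to 12 weeks. Every mouse had received 100 ng of lipopolysaccharide and 100 ug of ovalbumin into the airways 16 h earlier, so no untreated group was compared. There were 4 populations with 3 arrays each. The conventional DC (cDC) were CD103+, or CD11bhi and CD14lo, and are written CD103+ cDC and CD14lo cDC. The monocyte-derived DC (moDC) were CD11bhi and either CD14hi or Ly6Chi, the second called inf.moDCs in the labels, and are written CD14hi moDC and Ly6Chi moDC. Each replicate used 20 mice, so a value describes pooled animals, and the labels do not say whether replicates of the same number in different populations shared mice.

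NF-kappaB subunits bind DNA as dimers. In the canonical pathway, engaged by Toll-like receptors and tumour necrosis factor, IkB proteins such as the product of Nfkbia keep dimers of Rela or Rel in the cytoplasm until the IKK complex marks the inhibitor for destruction. In the alternative pathway the kinase encoded by Map3k14 drives processing of the Nfkb2 product, which then acts with Relb, the subunit on which maturation of many DC depends. Several inhibitor genes are themselves targets of NF-kappaB and close feedback loops, and the activity of the factor is set largely on the protein level, which arrays of RNA do not show.

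The upstream sequences of the members were searched for the kappaB consensus, the site NF-kappaB dimers bind, because the loops above run through such sites. RefSeq windows of the build GRCm38.p6 were given for 7 of the 10 genes, and the 250 bases before each start were searched on both strands for the consensus, which is 10 bases long, with overlapping matches counted. A match was found in 7 of the 10 windows of these members, which belong to 5 genes, against 7.25% of 32817 windows of all genes. For each of the 5 genes the stretch around the matches of 1 window is shown, with the matching letters in capitals and up to 20 bases on each side, 5′ to 3′ on the strand of the gene.
Nfkb2, chr19:46304678-46304736, plus strand: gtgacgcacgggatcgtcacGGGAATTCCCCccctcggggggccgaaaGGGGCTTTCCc
Rel, chr11:23771031-23771081, minus strand: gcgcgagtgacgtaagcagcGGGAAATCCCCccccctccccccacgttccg
Nfkbia, chr12:55492648-55492696, minus strand: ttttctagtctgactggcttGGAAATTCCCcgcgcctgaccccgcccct
Nfkbie, chr17:45555574-45555623, plus strand: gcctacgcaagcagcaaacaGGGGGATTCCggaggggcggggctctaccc
Tnfaip3, chr10:19015411-19015555, minus strand: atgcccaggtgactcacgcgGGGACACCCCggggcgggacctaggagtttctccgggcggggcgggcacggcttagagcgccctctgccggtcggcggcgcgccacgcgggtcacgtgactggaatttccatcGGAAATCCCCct
The 11 capital letters of Rel and the first 11 of Nfkb2 each hold a pair of matches that overlap by all but 1 base. Nfkb2 had 2 further windows, not shown, with 1 match each. The windows of Rela and Bcl3 and the other window of Tnfaip3 held no match, which says only that these letters are not there. A match describes the sequence and is not a measured site.

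Signals are MAS5 intensities in arbitrary units. Log2 differences and their SE come from a limma model fitted to all 12 arrays and 10929 genes, after a pseudocount of 50.0003 was added, and a fold is the same difference on a linear scale, understated for dim genes. A gene was called in a comparison at a Benjamini-Hochberg adjusted p under 0.05. Signals of different probe sets cannot be ranked against each other. With bulk RNA, fewer cells that express a gene and less RNA per cell cannot be told apart.

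The populations carried the markers of their sort. Itgae, which encodes CD103, ran from 12449 to 17620 in CD103+ cDC and reached at most 1126 elsewhere, and Itgam, which encodes CD11b, stayed at or under 72.1 in CD103+ cDC and was at least 859 elsewhere. Cd14 was at least 9073 in the monocyte-derived populations and at most 1714 in the conventional ones, while the leukocyte gene Ptprc lay between 6414 and 9168 on all 12 arrays. Ly6c1 and Ly6c2 had no probe set of 1 symbol that could be used. Of 6 neutrophil markers 3 passed the filter, and the summed signal of the 6 ran from 3925 to 4212 in Ly6Chi moDC against 309 to 2074 elsewhere. The 3 that passed, S100a8, S100a9 and Csf3r, had means of 1257, 1214 and 1533 in Ly6Chi moDC. They were called higher there than in each other population. Elane and Cxcr2, which did not pass, were at or under 59.4 on every array. Of 6 lung epithelium markers 5 passed, and the sum was 6852 to 11363 in CD103+ cDC against 1838 to 4861 elsewhere. In CD103+ cDC Scgb1a1 made up 4857 ± 1869 of it and Epcam, which is in that list, 2526 ± 323. Each of the 6 markers had its highest mean there. Some lists moved with the lineage. The 5 fibroblast markers all passed, and their sum was 4637 to 5501 in CD14hi moDC and at most 4448 in Ly6Chi moDC, against 1380 to 2137 in the conventional populations. Mgp made up most of it, Col1a1 stayed at or under 326, and 4 of the 5 were called lower in the conventional DC. Of 5 natural killer cell markers only Klrd1 passed, at 2388 to 6758 in the conventional populations against 449 to 1386 in the others, and Ncr1 was at or under 22.6 on every array. No T cell marker passed, 2 of 3 B cell markers did with sums of at most 467.8, and the sum of 5 alveolar macrophage markers was 6205 to 8069 in Ly6Chi moDC against 1213 to 7679 elsewhere. Chil3 made up most of that sum in Ly6Chi moDC, at 6685 ± 1013. The others, Siglecf, Marco, Car4 and Fabp1, had their lowest means in that population. Whether these signals came from other cell types or from the sorted cells themselves was not tested, nor was their part in the results below. RNA quality was read from control probe sets of Gapdh, whose ratio of 3′ over 5′ signal rises as RNA degrades. That ratio was 2.74 ± 0.91 (SD, n = 3) for CD103+ cDC and 1.85 ± 0.39 for CD14lo cDC, against 1.68 ± 0.14 for CD14hi moDC and 1.66 ± 0.22 for Ly6Chi moDC, so it was highest where most subunits were highest, and its part in the results was not tested beyond the covariate. A fit with the Gapdh ratio as a covariate is therefore reported where it ends a call. The high Gapdh ratio was not shared by all CD103+ cDC arrays: replicates 1 and 3 had 3.26 and 3.27, but replicate 2 had 1.68. The matching ratio for actin showed no such rise. Its population means lay between 0.998 and 1.04, and single arrays between 0.97 and 1.12, with both extremes in CD103+ cDC. Which of the ratios better describes RNA quality was not tested.

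Of the 9 genes, 7 varied among the 4 populations by the moderated F test of limma, against 51.1% of all genes tested. The exceptions were Tnfaip3 (adjusted p = 0.060) and Nfkbiz (adjusted p = 0.20). Over the 6 pairs of populations, 23 of 54 tests of a member were called (42.6%, against a mean of 28.9% for all genes). The median range of population means was 0.50 on the log2 scale for the 9 genes and 0.62 for all genes tested, and 4 of the 9 exceeded the second value. The range of Relb was wider than that of 94.6% of the genes, that of Nfkb2 than 79.0%, that of Rel than 76.1% and that of Bcl3 than 68.4%.

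**Figure D1:**
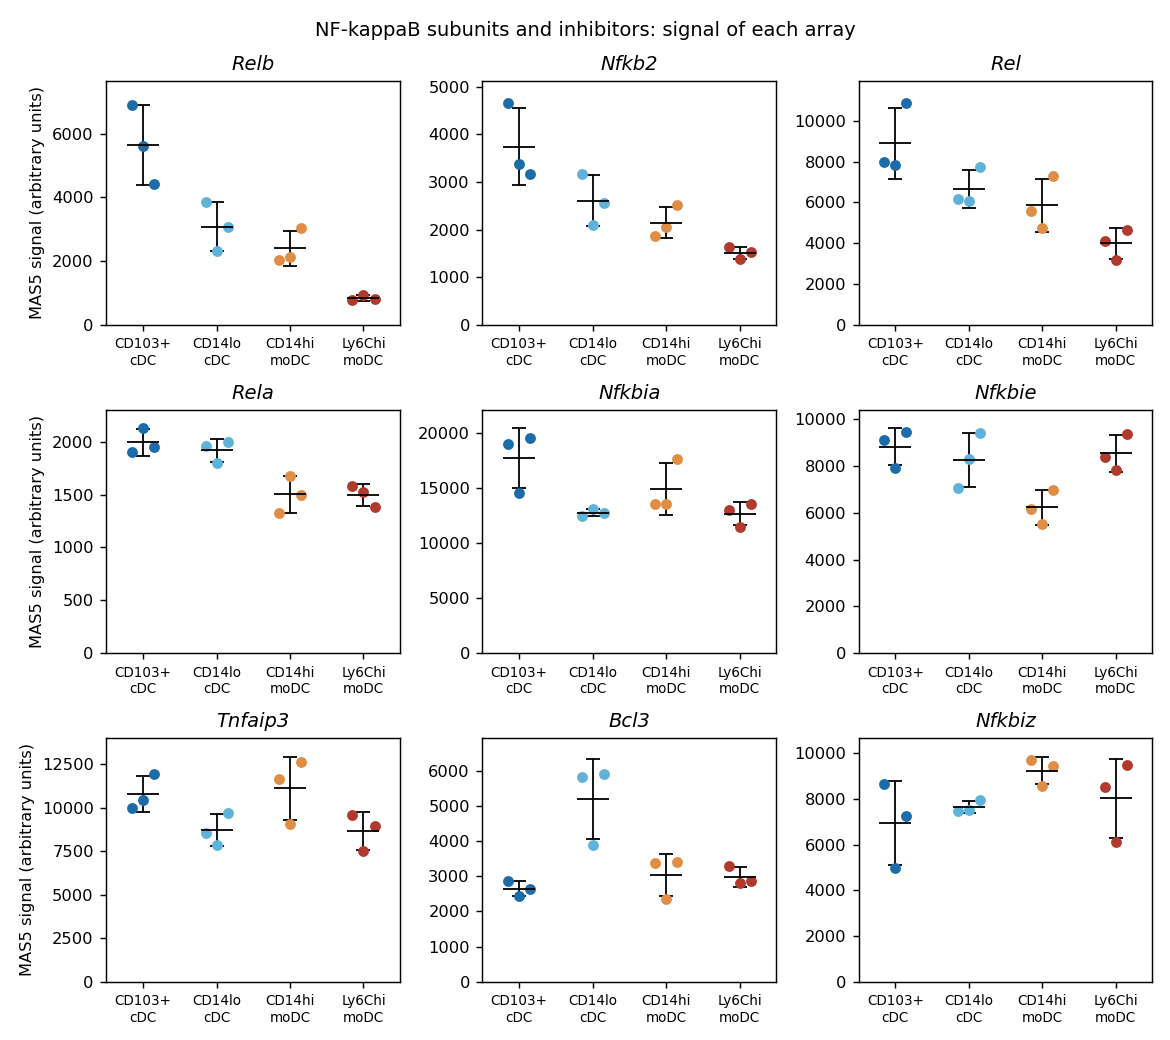
MAS5 signal (arbitrary units, linear axes from 0) of the 9 measured genes on every array, by population; points are arrays, long horizontal lines the mean and whiskers 1 SD (n = 3). Relb steps down from a mean of 5652 in CD103+ cDC to 841 in Ly6Chi moDC, Bcl3 stands out in CD14lo cDC at 5193, and Tnfaip3 and Nfkbiz overlap between most populations.

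Relb, the DNA-binding partner in the alternative pathway, had the widest differences of the group. Its signals were 6916, 5626 and 4412 in CD103+ cDC, 3844, 2314 and 3086 in CD14lo cDC, 2027, 2141 and 3036 in CD14hi moDC, and 789, 934 and 799 in Ly6Chi moDC. The CD103+ cDC arrays all lay above those of the other populations and the Ly6Chi moDC arrays all below, whereas CD14lo cDC and CD14hi moDC overlapped. Relb was 6.31-fold higher in CD103+ cDC than in Ly6Chi moDC (log2 difference 2.66 ± 0.20, adjusted p = 2.2e-09), 2.32-fold higher than in CD14hi moDC (1.22 ± 0.20, adjusted p = 7.9e-05) and 1.83-fold higher than in CD14lo cDC (0.87 ± 0.20, adjusted p = 0.0026). Ly6Chi moDC were also lower than CD14lo cDC by 3.45-fold (adjusted p = 1.4e-06) and than CD14hi moDC by 2.72-fold (adjusted p = 3.2e-05). Between the neighbours CD14lo cDC and CD14hi moDC the difference of 0.35 ± 0.20 was not called (adjusted p = 0.29). The 5 pairwise calls of Relb were kept under all 23 alternatives tried for each, and with the Gapdh ratio as a covariate the difference between CD103+ cDC and Ly6Chi moDC was 2.81.

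Nfkb2 encodes the precursor that holds Relb in the cytoplasm and that, once processed, becomes its partner. It had 4667, 3384 and 3178 in CD103+ cDC, 3173, 2107 and 2553 in CD14lo cDC, 1871, 2049 and 2511 in CD14hi moDC, and 1641, 1385 and 1522 in Ly6Chi moDC. The populations stood in the same order as for Relb, and only the arrays of CD14lo cDC and CD14hi moDC overlapped. Nfkb2 was higher in CD103+ cDC than in Ly6Chi moDC by 2.39-fold (log2 difference 1.26 ± 0.17, adjusted p = 8.3e-06), than in CD14hi moDC by 1.72-fold (adjusted p = 0.0016) and than in CD14lo cDC by 1.42-fold (adjusted p = 0.035), and it was 1.68-fold higher in CD14lo cDC than in Ly6Chi moDC (adjusted p = 0.0033). Neither CD14lo cDC and CD14hi moDC (0.27 ± 0.17, adjusted p = 0.36) nor CD14hi moDC and Ly6Chi moDC (0.48 ± 0.17, adjusted p = 0.066) differed by the test, although the second pair did with quantile normalization (adjusted p = 0.041), with only the arrays compared (0.027) and without CD103+ cDC replicate 1 (0.042). The call between the conventional populations was lost with the Gapdh covariate (adjusted p = 0.11), median centring (0.075), no filter (0.055), the mean of probe sets (0.11), only the arrays compared (0.063) and no intensity trend (0.062), and without CD103+ cDC replicate 1 (0.18), CD14lo cDC replicate 2 (0.16) or CD14lo cDC replicate 3 (0.084). On the dimmer probe set 1429128_x_at, whose suffix marks possible cross-hybridization, the difference between CD103+ cDC and Ly6Chi moDC was 1.01 (adjusted p = 0.0019), while those of CD103+ cDC against CD14hi moDC (0.38) and of CD14lo cDC against Ly6Chi moDC (0.65) were not called (adjusted p = 0.25 and 0.064).

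Rel encodes c-Rel, a subunit abundant in leukocytes that is needed for transcription of interleukin 12 genes. Its signals were 7971, 7819 and 10892 in CD103+ cDC, 6170, 6088 and 7716 in CD14lo cDC, 5585, 4733 and 7275 in CD14hi moDC, and 4124, 3181 and 4667 in Ly6Chi moDC. Again CD103+ cDC lay above and Ly6Chi moDC below all other arrays, with overlap in between. The difference between these extremes was 2.21-fold (log2 difference 1.15 ± 0.18, adjusted p = 3.1e-05). Rel was also 1.67-fold higher in CD14lo cDC than in Ly6Chi moDC (adjusted p = 0.0042), 1.52-fold higher in CD103+ cDC than in CD14hi moDC (adjusted p = 0.012) and 1.46-fold higher in CD14hi moDC than in Ly6Chi moDC (adjusted p = 0.040). The neighbouring pairs CD103+ cDC and CD14lo cDC (0.41 ± 0.18, adjusted p = 0.099) and CD14lo cDC and CD14hi moDC (0.20 ± 0.18, adjusted p = 0.54) were not called. The call of CD103+ cDC against CD14hi moDC was lost with the Gapdh covariate (adjusted p = 0.20) and without CD103+ cDC replicate 3 (0.077) or CD14hi moDC replicate 2 (0.079). That of CD14hi moDC against Ly6Chi moDC was lost with median centring (0.25), no filter (0.076) and no intensity trend (0.085), and without CD14hi moDC replicate 1 (0.074) or replicate 3 (0.19), or Ly6Chi moDC replicate 1 (0.074) or replicate 2 (0.19).

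Rela encodes p65, the main activating subunit of the canonical pathway, and followed the lineage in a narrow range. It had 1900, 2133 and 1945 in CD103+ cDC, 1958, 1797 and 1996 in CD14lo cDC, 1326, 1679 and 1496 in CD14hi moDC, and 1581, 1521 and 1380 in Ly6Chi moDC. All 6 arrays of the conventional populations lay above all 6 of the monocyte-derived ones, which held for none of the 8 other genes and for 11.7% of all genes tested. With the 2 populations of each lineage averaged, Rela was 1.30-fold higher in the conventional DC (log2 difference 0.38 ± 0.10, adjusted p = 0.0038), a call kept under all 22 alternatives. In the pairs, CD103+ cDC were higher than CD14hi moDC (0.40 ± 0.14, adjusted p = 0.025) and than Ly6Chi moDC (0.40 ± 0.14, adjusted p = 0.019), and CD14lo cDC differed from them by 0.35 ± 0.14 and 0.35 ± 0.14 without a call (adjusted p = 0.096 and 0.068). The first of these was called with median centring (0.046) and the mean of probe sets (0.046), and the second with the Gapdh covariate (0.041) and the mean of probe sets (0.031). Without CD103+ cDC replicate 2 neither pairwise call held (adjusted p = 0.072 and 0.060). The call against CD14hi moDC was also lost with only the arrays compared (0.054) and without CD14hi moDC replicate 1 (0.12) or replicate 3 (0.060), and that against Ly6Chi moDC without Ly6Chi moDC replicate 3 (0.075) and with median centring (0.12).

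In the same comparison of lineages Relb was 2.83-fold (adjusted p = 6.5e-08), Nfkb2 1.70-fold (adjusted p = 5.8e-05) and Rel 1.59-fold (adjusted p = 2.7e-04) higher in the conventional DC. On the probe set used for each gene, the 4 measured subunits were called in the same direction and the 5 inhibitors and modifiers were not called, while 41.5% of all genes tested were called, 20.8% higher and 20.7% lower in the conventional DC. The split does not hold on every probe set, since 1448728_a_at and 1457404_at called Nfkbiz lower in the conventional DC (log2 difference -0.68 and -0.59, adjusted p = 2.8e-04 and 2.1e-04). Whether the subunits differed from the inhibitors and modifiers was not tested. Of 12 further inhibitors tested, 3 were called higher and 1 lower in the conventional DC. Each of the 4 calls of subunits was kept under every alternative tried, including the Gapdh covariate. For Nfkbie (0.22 ± 0.09, adjusted p = 0.067) the test was passed without CD103+ cDC replicate 2 (0.037), CD14lo cDC replicate 1 (0.030) or CD14hi moDC replicate 3 (0.035), and for Bcl3 (0.30 ± 0.12, adjusted p = 0.060) with quantile normalization (0.040) and without CD14lo cDC replicate 2 (0.0089) or CD14hi moDC replicate 3 (0.045). These means can be moved by 1 population of a side: for Relb, Nfkb2 and Rel the arrays of CD14lo cDC and CD14hi moDC overlapped.

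**Figure D2:**
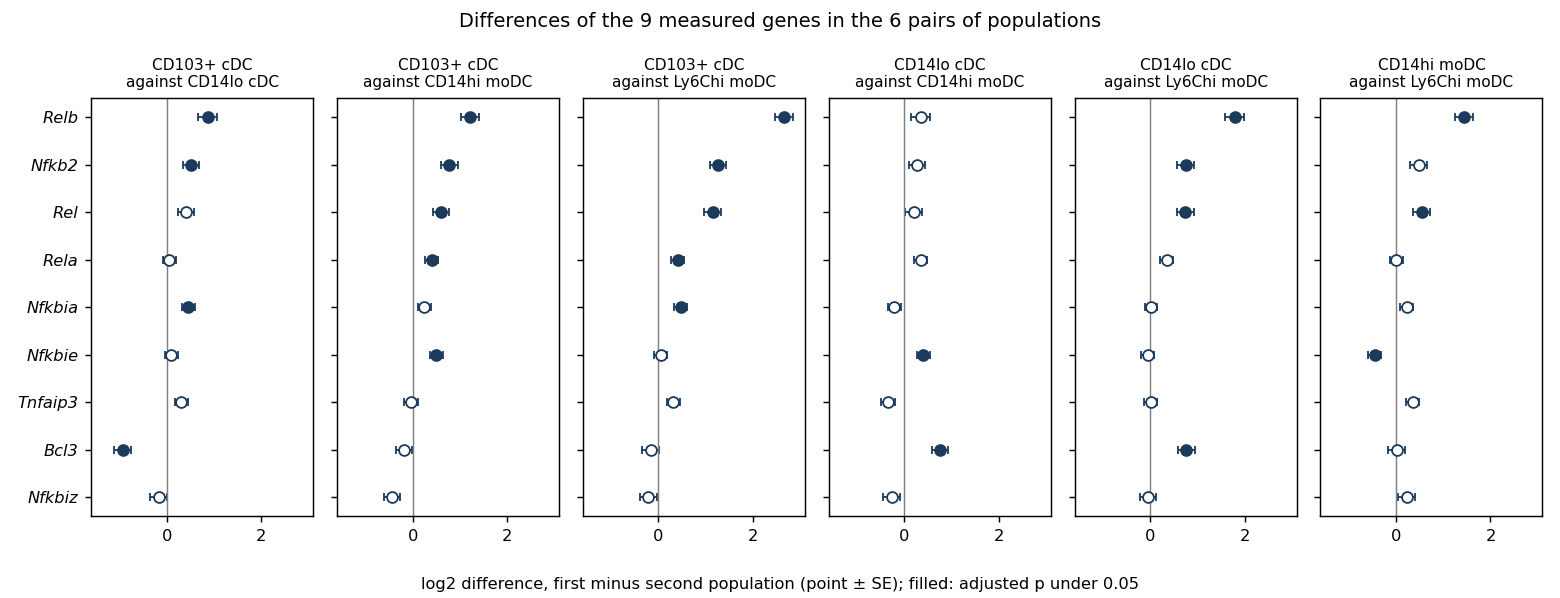
Log2 difference, first minus second population, of the 9 genes in each pair of populations (point ± SE from limma, 3 arrays per population); filled points were called at an adjusted p under 0.05. The subunits Relb, Nfkb2 and Rel lie to the right of 0 in all 6 pairs, with Relb at 2.66 between CD103+ cDC and Ly6Chi moDC, whereas Bcl3 lies at -0.94 between the conventional populations.

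Nfkbia encodes IkBalpha, the inhibitor that is destroyed first on stimulation and resynthesised through kappaB sites. Its signals were 19019, 14588 and 19566 in CD103+ cDC, 12468, 13138 and 12763 in CD14lo cDC, 13594, 13524 and 17686 in CD14hi moDC, and 13025, 11492 and 13524 in Ly6Chi moDC. The CD103+ cDC arrays lay above those of CD14lo cDC and Ly6Chi moDC and overlapped with CD14hi moDC. Nfkbia was 1.37-fold higher in CD103+ cDC than in CD14lo cDC (log2 difference 0.46 ± 0.13, adjusted p = 0.015) and 1.39-fold higher than in Ly6Chi moDC (0.47 ± 0.13, adjusted p = 0.0070). Both calls were lost with quantile normalization (0.14 and 0.17, adjusted p = 0.41 and 0.24), with median centring (adjusted p = 0.057 and 0.10) and with the Gapdh ratio as a covariate (0.25 and 0.21, adjusted p = 0.21 and 0.29), and the first also without CD103+ cDC replicate 1 (0.063) or replicate 3 (0.073). Among the 4 other probe sets the difference from Ly6Chi moDC ran from 0.45 to 0.67 and was called in each, and that from CD14lo cDC was called in all but 1448306_at (0.41, adjusted p = 0.17). The difference of CD103+ cDC from CD14hi moDC was not called in limma on the main probe set (0.25 ± 0.13, adjusted p = 0.17). Of the 4 others only 1438157_s_at called it (0.55, adjusted p = 0.018).

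Nfkbie encodes IkBepsilon, which binds dimers of Rela and Rel. It had 9098, 7909 and 9422 in CD103+ cDC, 7054, 8301 and 9388 in CD14lo cDC, 6143, 5533 and 6983 in CD14hi moDC, and 8377, 7827 and 9368 in Ly6Chi moDC. The CD14hi moDC arrays were the lowest of all, without overlap with any other population, and the other 3 populations overlapped with each other. Nfkbie was lower in CD14hi moDC than in CD103+ cDC by 1.42-fold (adjusted p = 0.0063), than in Ly6Chi moDC by 1.37-fold (adjusted p = 0.023) and than in CD14lo cDC by 1.32-fold (adjusted p = 0.049). With the Gapdh covariate the first of these calls (0.16) and the third (0.051) were lost. The second was lost with no intensity trend (0.063) and without CD14hi moDC replicate 1 (0.057) or replicate 2 (0.12), or Ly6Chi moDC replicate 1 (0.058) or replicate 3 (0.11), and the third in 15 of 24 alternatives. Among these were 9 of the 12 fits that left out an array, at an adjusted p of at most 0.23, while those without CD103+ cDC replicate 2, CD14lo cDC replicate 1 or CD14hi moDC replicate 3 kept it. The probe set 1431843_a_at put CD14hi moDC lowest as well, at 3710 ± 920 against means of 4650 to 5289, and called the difference from Ly6Chi moDC (log2 difference -0.52, adjusted p = 0.048) but not that from CD103+ cDC (0.35, adjusted p = 0.14) or CD14lo cDC (0.51, adjusted p = 0.064).

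Tnfaip3 encodes A20, an enzyme that edits ubiquitin chains and ends signalling to the IKK complex. Its signals were 9976, 10434 and 11967 in CD103+ cDC, 8577, 7887 and 9683 in CD14lo cDC, 11684, 9093 and 12616 in CD14hi moDC, and 9619, 7496 and 8942 in Ly6Chi moDC. CD103+ cDC lay above CD14lo cDC and Ly6Chi moDC without overlap, and the CD14hi moDC arrays, from 9093 to 12616, overlapped with every other population. None of the 6 pairs was called in limma, whose largest differences were 0.35 ± 0.14 for CD14hi moDC against Ly6Chi moDC (adjusted p = 0.098) and -0.34 ± 0.14 for CD14lo cDC against CD14hi moDC (adjusted p = 0.12). Both were called without CD14hi moDC replicate 2, whose 9093 was the lowest of its population (0.49, adjusted p = 0.034, and -0.48, adjusted p = 0.040). The dimmer probe set 1450829_at gave differences of the same signs and made no call either.

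Bcl3 encodes a nuclear IkB protein that binds dimers of the Nfkb1 and Nfkb2 products on DNA and can activate or repress their targets. It had 2874, 2431 and 2643 in CD103+ cDC, 5807, 3873 and 5900 in CD14lo cDC, 3369, 2357 and 3389 in CD14hi moDC, and 3299, 2792 and 2850 in Ly6Chi moDC. Every CD14lo cDC array was above every array of the other 3 populations, which overlapped with each other. Bcl3 was 1.91-fold higher in CD14lo cDC than in CD103+ cDC (log2 difference -0.94 ± 0.17 for CD103+ cDC minus CD14lo cDC, adjusted p = 4.2e-04), 1.70-fold higher than in Ly6Chi moDC (0.77 ± 0.17, adjusted p = 0.0024) and 1.69-fold higher than in CD14hi moDC (0.76 ± 0.17, adjusted p = 0.0044). These 3 calls were kept under each of the 23 alternatives, so that Bcl3 was the only one of the 9 genes with its highest level in CD14lo cDC and was called there against all 3 other populations.

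Nfkbiz encodes IkBzeta, a nuclear IkB protein that is made on stimulation through Toll-like receptors and is needed for a subset of late targets such as Il6. On the brightest probe set it had 8638, 4996 and 7244 in CD103+ cDC, 7463, 7517 and 7934 in CD14lo cDC, 9679, 8562 and 9444 in CD14hi moDC, and 8498, 6109 and 9476 in Ly6Chi moDC. The arrays of CD103+ cDC overlapped with those of each other population, and no pair was called in limma, the nearest being CD103+ cDC against CD14hi moDC (log2 difference -0.44 ± 0.18, adjusted p = 0.058). That pair was called without CD103+ cDC replicate 1 (-0.61, adjusted p = 0.014) or Ly6Chi moDC replicate 2 (adjusted p = 0.037), with quantile normalization (-0.52, adjusted p = 0.019), with the mean of probe sets (-0.95, adjusted p = 3.4e-05) and with the Gapdh covariate (-0.81, adjusted p = 0.0028).

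The 2 other probe sets of Nfkbiz put the population means in the same order, highest in CD14hi moDC and lowest in CD103+ cDC. They differed from the brightest one in the size of the differences and in the calls. The probe set 1457404_at had 1786, 1322 and 1449 in CD103+ cDC, 2503, 2469 and 2569 in CD14lo cDC, 4020, 3091 and 2960 in CD14hi moDC, and 2784, 2819 and 2310 in Ly6Chi moDC. On 1448728_a_at the same populations had 1259, 1225 and 1185, then 1885, 1706 and 2655, then 3242, 2523 and 3581, and 2243, 1715 and 2573. On both, every CD103+ cDC array was below every other array. With each probe set fitted on its own, Nfkbiz was lower in CD103+ cDC than in CD14hi moDC by 1.12 and 1.30 on the log2 scale (adjusted p = 1.0e-05 and 1.4e-05), than in Ly6Chi moDC by 0.78 and 0.79 (adjusted p = 3.3e-04 and 0.0016) and than in CD14lo cDC by 0.72 and 0.72 (adjusted p = 0.0016 and 0.0064). The sources used here do not say which transcripts or which part of the gene each probe set covers. It is therefore unsettled which gives the size of the differences of the gene.

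**Figure D3:**
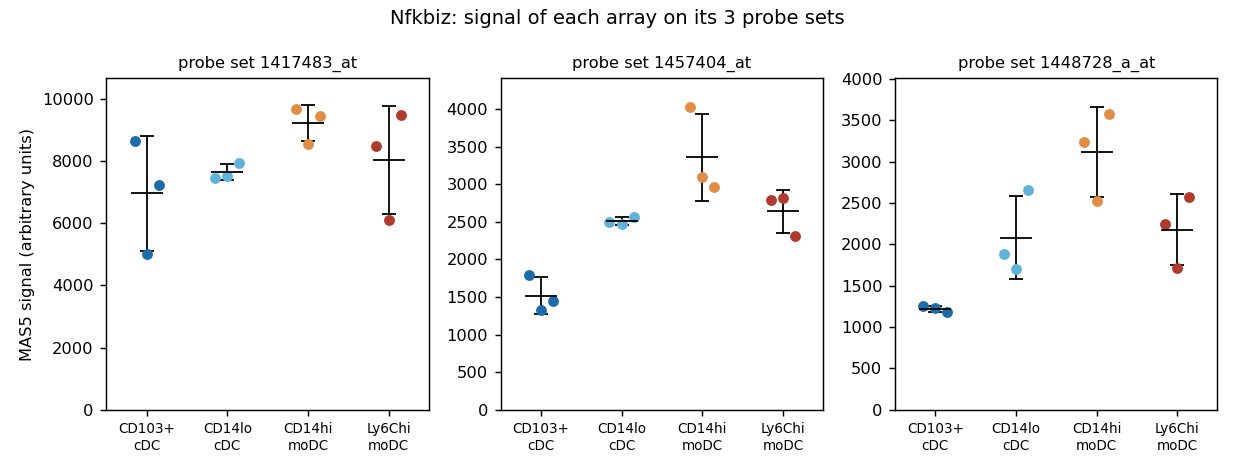
MAS5 signal (arbitrary units, axes from 0) of Nfkbiz on each array for its 3 probe sets, by population; points are arrays, long horizontal lines the mean and whiskers 1 SD (n = 3). CD103+ cDC overlap with every other population on 1417483_at, with a mean of 6959, and lie below all of them on 1457404_at and 1448728_a_at, with means of 1519 and 1223.

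By pair, the number of members called was 5 of 9 between CD103+ cDC and CD14hi moDC (of all genes tested 37.2%, with 16.9% higher and 20.3% lower in CD103+ cDC) and 5 of 9 between CD103+ cDC and Ly6Chi moDC (47.5%, with 23.2% higher and 24.3% lower), all higher in CD103+ cDC. Between CD103+ cDC and CD14lo cDC it was 4 (28.7%, with 13.4% higher and 15.3% lower), of which Relb, Nfkb2 and Nfkbia were higher in CD103+ cDC and Bcl3 lower, and 2 without CD103+ cDC replicate 1. Between CD14lo cDC and Ly6Chi moDC, Relb, Nfkb2, Rel and Bcl3 were higher in CD14lo cDC (4 of 9, against 25.2% of all genes, with 14% higher and 11.2% lower). Between CD14hi moDC and Ly6Chi moDC, Relb and Rel were higher and Nfkbie lower in CD14hi moDC (3 of 9, against 18.2%, with 11.4% higher and 6.82% lower), with 1 left without CD14hi moDC replicate 1 or Ly6Chi moDC replicate 1. Between CD14lo cDC and CD14hi moDC only Bcl3 and Nfkbie were called, both higher in CD14lo cDC (2 of 9, against 16.2%, with 6.95% higher and 9.24% lower), and only Bcl3 where Nfkbie was lost. The median log2 difference of the 9 genes was 0.40 between CD103+ cDC and Ly6Chi moDC, against -0.02 for all genes, and 0.31 between CD103+ cDC and CD14lo cDC, against -0.03. These comparisons share populations and are not independent.

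Correlations of the members over the 12 arrays are given as descriptions, since the arrays come from 4 populations. Pearson's r of log2 signals was 0.96 between Relb and Nfkb2, 0.85 between Relb and Rel and 0.83 between Nfkb2 and Rel. The feedback inhibitors Nfkbia and Tnfaip3 had 0.72 with each other, and Bcl3 had 0.09 with Relb. The lowest value, -0.61, was between Rela and Nfkbiz. Among the other genes tested, the profile most like that of Relb was that of Traf5, an adaptor of tumour necrosis factor receptors (r = 0.99, means of 1747, 1302, 1241 and 778 from CD103+ cDC to Ly6Chi moDC), followed by Csrp1 (r = 0.98). Nfkb2 was most like Gphn (r = 0.98) and Insl6 (0.97), Rel like Gpr132 (0.95) and Pfkfb3 (0.95), and Rela like Unc119b (0.96) and Haao (0.94). Nfkbia was most like Foxk2 (0.95) and Ctsz (0.91), Nfkbie like Helz2 (0.95) and Ass1 (0.91), and Bcl3 like Ifitm1 (0.92) and Rcl1 (0.91). The likenesses were weaker for Nfkbiz, with Bmi1 (0.89) and Socs3 (0.88), and for Tnfaip3, with Rab12 (0.85) and Ppp1r15a (0.84).

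The kinases that act on these proteins were examined as a list of 11 genes, of which 10 were tested. Of these, 6 were called in at least 1 pair, the same share as the 60% of all genes tested, and 4 varied by the F test, against 51.1%. Map3k14, the kinase that starts the alternative pathway, had 6233, 5267 and 5699 in CD103+ cDC, 2628, 2587 and 2624 in CD14lo cDC, 1300, 1583 and 1359 in CD14hi moDC, and 665, 724 and 598 in Ly6Chi moDC. Its populations stood in the order of Relb and Nfkb2, with no overlap between any of them, and all 6 pairs were called. It was 8.12-fold higher in CD103+ cDC than in Ly6Chi moDC (log2 difference 3.02 ± 0.13, adjusted p = 2.4e-12) and, unlike Relb, was also called between CD14lo cDC and CD14hi moDC (1.83-fold, adjusted p = 1.3e-04). Whether Map3k14 and Relb differed in this pair was not tested.

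Ikbkb, the catalytic subunit IKKbeta of the canonical pathway, was 2.27-fold higher in CD103+ cDC than in Ly6Chi moDC (5425 ± 1299 against 2320 ± 228, adjusted p = 1.0e-05). Ikbke, a related kinase that also activates interferon regulatory factors, went the other way, with means of 57.5, 120, 471 and 797 from CD103+ cDC to Ly6Chi moDC and a 7.96-fold lower level in CD103+ cDC than in Ly6Chi moDC (adjusted p = 1.1e-09). Its level in CD103+ cDC was close to the pseudocount, on which that fold therefore depends. Map3k8, a kinase held by the Nfkb1 precursor, was called in 1 pair, 1.64-fold higher in CD103+ cDC than in Ly6Chi moDC (adjusted p = 0.013). Over the list, 5 of 10 were higher and 1 lower in that pair, against 23.2% and 24.3% of all genes, with a median log2 difference of 0.36 against -0.02.

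Adaptors and ubiquitin ligases were tested for 18 of 25 genes. Between CD103+ cDC and Ly6Chi moDC 6 were higher and 4 lower, 10 of 18 in all against 47.5% of all genes, with a median log2 difference of 0.07. Birc2, which helps keep the Map3k14 product low in resting cells, had means of 6895, 4348, 3130 and 1064 from CD103+ cDC to Ly6Chi moDC and was 6.35-fold higher in the first than in the last (adjusted p = 2.9e-10). Traf1 followed the same order and was 5.20-fold higher (14206 ± 3745 against 2804 ± 1185, adjusted p = 3.2e-07), and Traf6, the ligase that links Toll-like receptors to the IKK complex, was 2.47-fold higher (adjusted p = 2.8e-04). Irak3, which encodes an inhibitor of Toll-like receptor signalling, was 7.66-fold lower in CD103+ cDC than in Ly6Chi moDC (82.1 ± 20.2 against 964 ± 174, adjusted p = 3.0e-10).

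**Figure D4:**
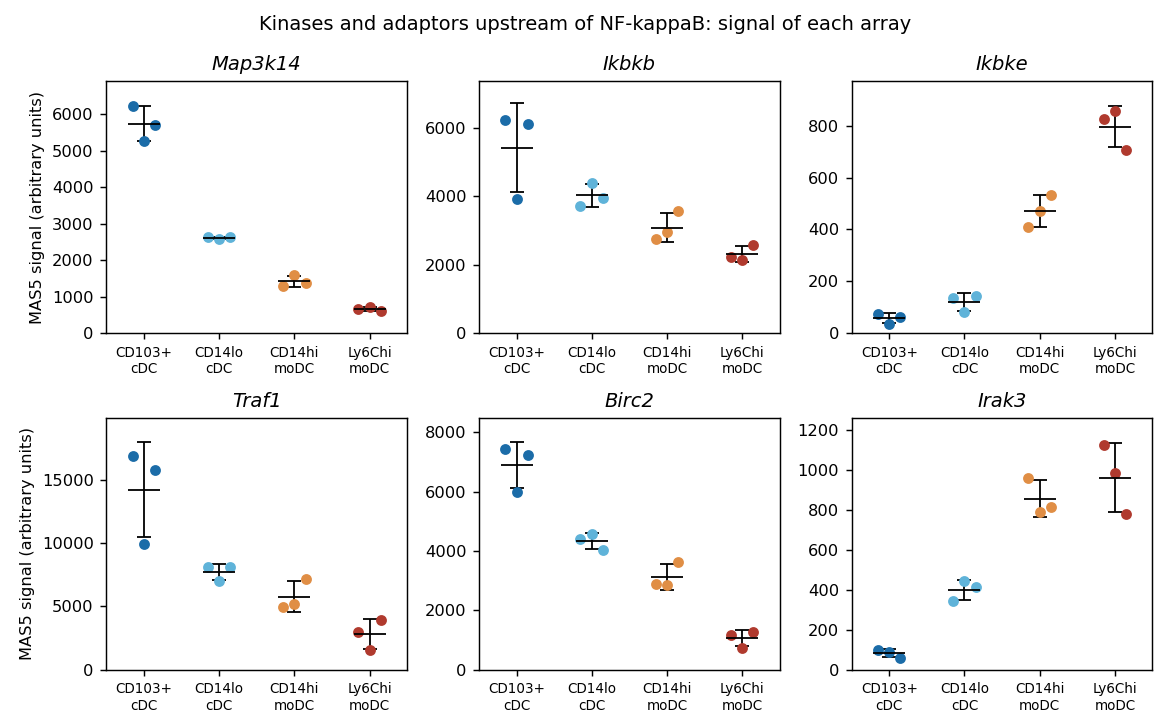
MAS5 signal (arbitrary units, axes from 0) of 6 genes of kinases and adaptors upstream of NF-kappaB, by population; points are arrays, long horizontal lines the mean and whiskers 1 SD (n = 3). Map3k14, Ikbkb, Traf1 and Birc2 have their highest mean in CD103+ cDC and their lowest in Ly6Chi moDC, from 5733 to 663 for Map3k14, and Ikbke and Irak3 the reverse.

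Further inhibitors were tested for 12 of 13 genes, and 10 were called in at least 1 pair, against 60% of all genes. Nfkbib, which encodes IkBbeta, was 2.01-fold higher in CD103+ cDC than in Ly6Chi moDC (3772 ± 546 against 1845 ± 202, adjusted p = 2.3e-04). Cyld, a deubiquitinase that ends NF-kappaB signalling, followed the lineage: it was 1.90-fold higher in CD14lo cDC than in CD14hi moDC (adjusted p = 0.0029) and 1.62-fold higher in CD103+ cDC than in Ly6Chi moDC (adjusted p = 0.0076). Tnip2, a partner of the Tnfaip3 product, was 1.72-fold higher in CD14hi moDC than in Ly6Chi moDC (adjusted p = 0.0024), and N4bp1 was 1.89-fold lower in CD14hi moDC than in Ly6Chi moDC (adjusted p = 0.0046). In the pair CD103+ cDC and Ly6Chi moDC, 3 of the 12 were higher and 3 lower, against 23.2% and 24.3% of all genes.

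Of the receptors that feed the pathway, all 12 listed genes were tested, and between CD103+ cDC and Ly6Chi moDC 7 were lower and 2 higher in CD103+ cDC, against 24.3% and 23.2% of all genes, with a median log2 difference of -0.59. Tlr4, the receptor for the lipopolysaccharide given, was 5.61-fold lower (281 ± 109 against 1763 ± 335, adjusted p = 5.7e-08) and Tlr2, which senses bacterial lipoproteins, 11.6-fold lower (adjusted p = 2.6e-12). Cd14, the co-receptor of Tlr4, was 11.2-fold lower (adjusted p = 4.8e-10), although the sort used it to part the CD11bhi cells. Tnfrsf13c, a receptor that signals through the alternative pathway, was 2.51-fold higher (adjusted p = 1.7e-04) and highest in CD14lo cDC, at 875 ± 138.

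Ligands of the pathway were tested for 6 of 9 genes. Between CD103+ cDC and CD14hi moDC 5 of the 6 were lower in CD103+ cDC, against 20.3% of all genes. In the pair with CD14lo cDC 3 were higher and 3 lower in CD103+ cDC, against 13.4% and 15.3% of all genes. In that with Ly6Chi moDC 1 was higher and 3 lower, against 23.2% and 24.3%. Tnf, which activates the canonical pathway, had means of 1382, 534, 2977 and 1563 from CD103+ cDC to Ly6Chi moDC and was 5.13-fold higher in CD14hi moDC than in CD14lo cDC (adjusted p = 9.2e-06). Tnfsf13b, the gene of a ligand of Tnfrsf13c, was 4.90-fold higher in the same pair (975 ± 231 against 156 ± 4.42, adjusted p = 5.5e-07). Il1a was 4.92-fold higher in Ly6Chi moDC than in CD14lo cDC (adjusted p = 5.1e-06), and Tnfsf14 was higher in Ly6Chi moDC, at 283 ± 91.0, than in CD103+ cDC, where it was dim at 23.3 ± 20.9 (adjusted p = 2.0e-06).

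Target genes were called in both directions. Of 22 tested among 26 listed, 10 were higher and 10 lower in CD103+ cDC than in Ly6Chi moDC, against 23.2% and 24.3% of all genes. Between CD14lo cDC and CD14hi moDC 12 were lower in CD14lo cDC, against 9.24% of all genes, and the others were not called. Il12b, which encodes a chain of interleukin 12, was higher in CD103+ cDC, at 6751 ± 969, than in Ly6Chi moDC, where its signals were 95.7, 2.58 and 40.6 (adjusted p = 3.4e-11). No fold is given, since at such dim signals it depends on the pseudocount. Ccl22, the gene of a chemokine of mature DC, was 34.7-fold higher (adjusted p = 5.0e-12) and Ccr7, the receptor for homing to lymph nodes, 29.7-fold higher (adjusted p = 1.8e-11) in the same pair. Ptgs2, the inducible cyclooxygenase gene, was 40.0-fold lower in CD103+ cDC, at 117 ± 74.6 against 6432 ± 1919 (adjusted p = 1.2e-10).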

How the data were processed

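Biotin-labelled RNA (50 ng amplified per sample, from cells sorted to a purity above 93% per the labels) was measured on 12 single-colour arrays. The deposited table holds an intensity per probe set on a linear scale, with MAS5 named in the submitters' processing notes. The values show that the authors scaled each array to a 2% trimmed mean of 500.003. Neither the MAS5 version nor detection calls are stated in the sources used here. Of 45101 probe sets, 64 controls were left out, and 25138 exceeded the array median in at least 3 of 12 arrays. Symbols came from the platform annotation. The probe set of highest mean stood for each of 10929 genes, and log2 of signal plus 50.0003 was fitted with limma 3.58.1 (R 4.3.3, lmFit, eBayes with trend, 8 residual degrees of freedom), two-sided, adjusted by Benjamini-Hochberg over all genes. The fit was tested on simulated data with independent noise on each array, which does not cover arrays that deviate together.

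The members and lists were chosen with earlier results of these data known. The rule for named genes took all members, at most 4 called genes of each list with the widest range of population means on the log2 scale, and the 2 genes of highest correlation with each member. Counts over the lists are printed for some of the 6 pairs only. The number of arrays limits the precision. Promoter sequences are from RefSeq. Alternatives were another normalization, pseudocount, filter or probe set rule, only the arrays compared, no trend, a block, the Gapdh ratio as covariate, and leaving out each array.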

Additional observations from a re-analysis of the deposited data

How the results depend on the processing

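No member changed direction in a called difference under any alternative. Of 27 called differences of members, over 6 pairs and the lineages, 15 were kept under every alternative and 12 were lost under at least 1. The count of members called between CD103+ cDC and CD14lo cDC, 4, was 2 with median centring, with the Gapdh covariate and where every probe set of a gene had to be called, and 2 to 4 with an array left out. Between CD103+ cDC and CD14hi moDC it was 3 where every probe set had to be called, and between CD103+ cDC and Ly6Chi moDC 3 with median centring, against 5 for each. Between CD14lo cDC and CD14hi moDC it was 1 with the smaller pseudocount, no filter, only the arrays compared, no intensity trend, the Gapdh covariate and every probe set, 4 with the mean of probe sets, and 1 to 2 with an array left out. Between CD14hi moDC and Ly6Chi moDC it was 1 without an intensity trend and 1 to 4 with an array left out. Arrays of the same replicate number deviated together with r over 0.1 in 8 of 18 pairs, against 4 of 36 pairs of different numbers, and 8 of 12 arrays correlated best with their own number. The labels do not say that a number marks shared mice, so the block is given as an alternative only. With a replicate block the counts in the 6 pairs were 5, 6, 6, 2, 4 and 4 and that between the lineages was 6 in place of 4, with Nfkbie (adjusted p = 0.043) and Bcl3 (0.020) added. In the pairs the block added Rel between CD103+ cDC and CD14lo cDC (0.017) and Nfkbiz between CD103+ cDC and CD14hi moDC (0.024). It also added Tnfaip3 between CD103+ cDC and Ly6Chi moDC (0.041) and Nfkb2 between CD14hi moDC and Ly6Chi moDC (0.0496). The block ended no call of a member, and the calls over all genes were 1.01 to 1.04 times the main counts. Median centring shifted the median of all genes by up to -0.22, between CD14hi moDC and Ly6Chi moDC. Calls of the named pathway genes were lost in 76 of 2826 combinations of a difference and an alternative, and reversed in none. The 3 arrays per population limit the precision, and why calls changed was not tested.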
